A study of Mus musculus with 80 samples.

Results

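Immunoglobulin variable segments are the stretches of the heavy-chain, kappa and lambda loci that code for most of the antigen-contacting part of an antibody. The deposited gene table of mouse whole blood held 346 rows named Ighv (heavy chain, 183), Igkv (kappa, 160) or Iglv (lambda, 3), after symbols ending in -ps were set aside. A row was kept when its value, rescaled so that all libraries had equal medians of ratios, was at least 10 in at least 3 of 80 libraries. This left 183 segments, 94 heavy, 86 kappa and 3 lambda, of 21101 genes that met the same rule. The members were therefore chosen on the values described here, and no test over the list is given. Of the 163 rows not kept, 45 were listed at 0 in every library, and together the 163 held 0.921% of the variable-segment signal. Just inside the threshold, the third highest value was 10.2 for Ighv1-37, 10.6 for Igkv9-129 and 12.9 for Igkv11-125. Just outside, it was 9.67 for Igkv8-34, 9.52 for Igkv1-132 and 9.47 for Igkv4-81. Sham libraries alone carried 24 members over the threshold and irradiated libraries alone carried 0, so for those 24 a lower level after irradiation was partly built into the choice.

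The mice were female C57BL/6, bled by cardiac puncture, and each library is whole-blood RNA from a mouse that the labels list as a separate sample. In the VarDR mode (variable dose rate), the rate falls from day to day. Irradiated mice of this mode had received 2 Gy by day 2 (listed rate 1 Gy/day, n = 5). Further VarDR groups (n = 6 each) had received 2.8 Gy by day 3 (listed rate 0.77 Gy/day) and 4.1 Gy by day 5 (0.62 Gy/day). The last of them had received 9.7 Gy by day 30 (0.056 Gy/day). On days 3, 5 and 30 the listed rate is lower than the mean rate of the whole exposure. Acute exposure ran at 0.73 Gy/min, with groups at 2 Gy sampled on day 2 (n = 6), at 2.8 Gy sampled on day 3 (n = 3) and at 4.1 Gy sampled on day 5 (n = 6). Each irradiated group was set against sham-irradiated mice of its own mode and day (0 Gy, n = 6 each), which gives 38 irradiated and 42 sham libraries. Within each mode the dose rose with the day, so effects of dose and of day cannot be told apart.

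Each developing B cell joins 1 heavy-chain variable segment to diversity and joining segments, and 1 kappa or lambda variable segment to a joining segment, with the enzymes Rag1 and Rag2 making the cuts. The joined segment is then transcribed together with a constant gene (Ighm, Ighd, Igkc and others), so the RNA of a variable segment reports how many B cells and plasma cells chose it and how much receptor or antibody message each makes. A blood sample with many clones spreads this signal over many segments, and a sample with few clones gathers it on few. Circulating B lymphocytes are among the blood cells most sensitive to ionizing radiation.

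The 94 heavy-chain members lie on chromosome 12 between 113578504 and 116000461 (GRCm38, GENCODE M21), all on the minus strand. The 86 kappa members lie on chromosome 6 between 67555497 and 70704177, 33 on the plus and 53 on the minus strand, since part of that locus is inverted. The 3 lambda members lie on chromosome 16 between 19085017 and 19260859 on the minus strand. Their annotated biotype was an immunoglobulin V gene for 180 and a pseudogene for 3 (Ighv1-2, Igkv4-73 and Igkv4-77). Members fall into 33 families, and their annotated transcripts are 338 to 501 bases long (median 359).

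The 3′ ends of 6 coding segments named in the results are printed here for reference. They carry the conserved cysteine that closes the last framework region before the joint, after which the joining process adds variable bases. Capitals mark that cysteine codon, found as TGT or TGC at the end of the motif TANTNNTGN. The motif was searched on the RNA strand of the last 60 bases of each annotated transcript, pseudogenes included. It was present in 178 of 183 members (97.3%) and in 106 of the 163 rows not kept (65%). The heavy-chain segments shown are Ighv1-26, the member with the highest mean level on the log2 scale among heavy segments, and Ighv11-2 and Ighv12-3, which stand apart in the results.
Ighv1-26, chr12:114788372-114788431, minus strand: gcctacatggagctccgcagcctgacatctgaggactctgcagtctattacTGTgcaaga
Ighv11-2, chr12:114048241-114048300, minus strand: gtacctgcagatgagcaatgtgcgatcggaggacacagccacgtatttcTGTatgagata
Ighv12-3, chr12:114366521-114366580, minus strand: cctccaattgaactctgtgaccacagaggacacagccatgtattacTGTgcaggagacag
The kappa segments shown are Igkv1-117, the highest in level, and Igkv14-126 and Igkv4-91, the light-chain partners named with the results on those 2 heavy segments.
Igkv1-117, chr6:68121768-68121827, plus strand: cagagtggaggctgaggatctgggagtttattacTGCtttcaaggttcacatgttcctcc
Igkv14-126, chr6:67896583-67896642, plus strand: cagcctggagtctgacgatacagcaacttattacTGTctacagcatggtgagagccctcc
Igkv4-91, chr6:68768555-68768614, minus strand: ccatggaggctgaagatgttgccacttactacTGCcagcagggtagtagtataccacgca
After the cysteine codon the heavy segments hold 6, 8 and 11 bases and the kappa segments 23, 23 and 25 bases, so the kappa segments reach further into the last hypervariable loop than the heavy segments do.

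Variable segments resemble each other, and reads could be assigned to a near copy. Over whole transcripts the closest other variable segment was a median 95.2% identical to a member, at least 95% identical for 94 members and at least 99% for 3. The lambda segments Iglv1 and Iglv2 are shown because their responses are compared below, and capitals mark the 3 bases that differ in this window.
Iglv1, chr16:19085017-19085076, minus strand: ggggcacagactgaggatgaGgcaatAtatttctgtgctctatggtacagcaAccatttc
Iglv2, chr16:19260401-19260460, minus strand: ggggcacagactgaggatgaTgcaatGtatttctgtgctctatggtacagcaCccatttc
Ighv11-2 and Ighv11-1, which did not reach the threshold, are 98.9% identical over their transcripts and differ at 1 base here, in capitals.
Ighv11-2, same window: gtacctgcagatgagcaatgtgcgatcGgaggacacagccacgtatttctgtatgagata
Ighv11-1, chr12:113981879-113981938, minus strand: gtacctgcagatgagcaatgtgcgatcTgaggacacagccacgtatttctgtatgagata
Ighv11-1 had values of 0 to 21.0 and was listed at 0 in 61 of 80 libraries, so the signal at this pair was assigned almost wholly to Ighv11-2.

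The summed signal of the 183 segments was lower in irradiated than in sham mice in all 7 comparisons on the rescaled values, with the lowest group means after acute exposure. On acute day 5 the 6 irradiated libraries had a lowest, median and highest sum of 1342, 1640 and 2197, against 7840, 8573 and 8810 in the 6 shams. Each irradiated mouse stood far below each sham, and the means were 1695 ± 342 and 8466 ± 380 (SD), a log2 difference of −2.34. On acute day 3 the 3 irradiated sums were 2454, 1640 and 2944, against 6157, 7284 and 9474 in the shams (lowest, median, highest), and on acute day 2 the sums were 1765, 2569 and 3866 against 4418, 7836 and 11557. Neither of these pairs of groups overlapped, with log2 differences of −1.69 and −1.58.

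Under VarDR the rescaled sums were lower by less. On day 5 they were 2705, 3307 and 4455 in irradiated mice, against 6124, 7198 and 9542 in shams (log2 difference −1.12), and on day 30 they were 2842, 4379 and 5107 against 5647, 7249.5 and 8661 (−0.76). These groups did not overlap. The 5 irradiated mice of VarDR day 2 had sums of 3962, 4406, 5850, 5041 and 6855, against 6141.5, 8519.5 and 9382 in shams (−0.64), and only the highest irradiated mouse reached into the sham range. On VarDR day 3 irradiated sums of 3447, 4488 and 6198 overlapped sham sums of 4130, 5275 and 6961 almost completely (−0.21). Taken instead relative to the column total, the VarDR day 3 values went the other way, with 162 parts per M of signal in irradiated and 98.2 parts per M in sham mice (M for mega), a log2 difference of 0.64, whereas the other 6 comparisons kept their direction. The order of the modes also turned on that scale, with log2 differences of −2.13 on VarDR day 30 and −0.78, −0.46 and −1.68 on acute days 2, 3 and 5. In bulk blood, fewer B cells and less receptor RNA per B cell cannot be told apart.

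**Figure D1:**
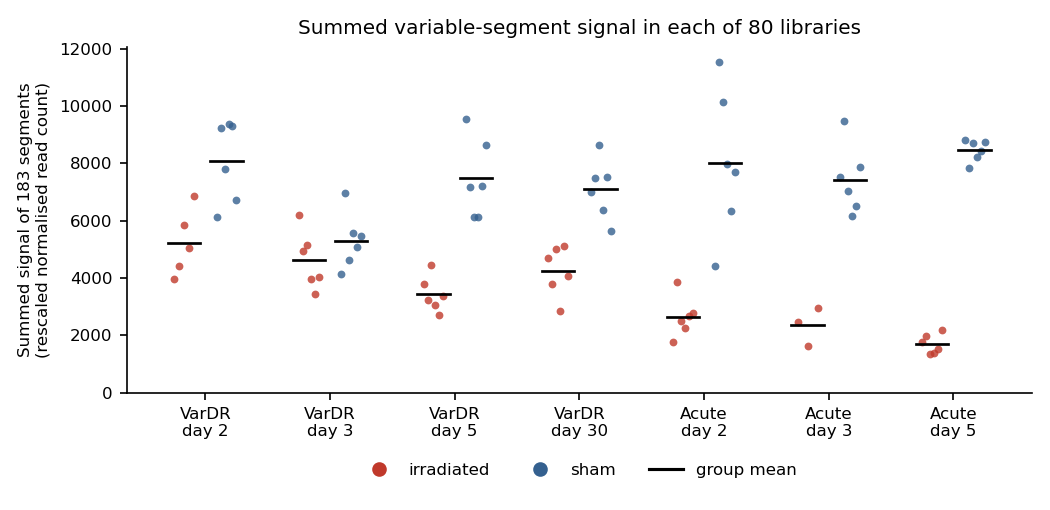
Summed rescaled signal of 183 variable segments (vertical axis) in each library, by exposure mode and day (horizontal axis), with irradiated mice in red left of their shams in blue and black bars for group means. On acute day 5 the 6 irradiated libraries lie between 1342 and 2197 and the 6 shams between 7840 and 8810, while on VarDR day 3 the groups overlap.

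Heavy-chain segments held 44.4% of the summed signal in irradiated and 38.5% in sham mice on acute day 5, kappa segments 48.3% and 52.4%, and lambda segments 7.26% and 9.14%. The mean heavy share was higher in the irradiated group in all 7 comparisons, with as little as 40.5% against 40.3% on VarDR day 30, and only on acute day 5 did the groups not overlap. The ratio of the kappa variable sum to Igkc, the kappa constant gene that is spliced to all of them, was 0.538 ± 0.089 in irradiated and 0.560 ± 0.0194 in sham mice on acute day 5. These ranges overlapped.

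Fewer segments were detected, with detection set at a rescaled value of at least 10. Irradiated mice of acute day 5 had 40, 46.5 and 66 segments detected (lowest, median, highest), against 137, 142.5 and 149 in shams. The means were 48.5 ± 9.14 and 142.5 ± 4.04 (SD, n = 6 each), and the groups were far apart. Acute day 3 gave 59.7 ± 15.3 in irradiated (n = 3) and 129.8 ± 12.8 in sham mice, and acute day 2 gave 72.3 ± 13.4 and 137.7 ± 15.1. Under VarDR the means were 111.8 against 140.8 on day 2, 111.2 against 119.5 on day 3, 88.2 against 125.0 on day 5 and 98.5 against 135.0 on day 30. A count of this kind follows the level: with detection set at a value of 1, irradiated mice of acute day 3 had 0.50 segments fewer than shams, and those of acute day 5 had 52.3 fewer.

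Evenness, which is Shannon entropy divided by its maximum over 183 segments and is 1 when all segments hold equal signal, does not depend on the scaling of a library, although values lost near 0 lower it. It was 0.817 ± 0.0416 in irradiated and 0.903 ± 0.0078 in sham mice on acute day 5, with a range of 0.752 to 0.864 against 0.891 to 0.910. The groups did not overlap, and the entropy equals that of 71.8 equally used segments in irradiated and 110.2 in sham mice. Evenness was 0.852 against 0.900 on acute day 2, 0.834 against 0.885 on acute day 3 and 0.852 against 0.901 on VarDR day 30. Smaller gaps were seen on VarDR day 5 (0.840 against 0.875) and day 2 (0.878 against 0.895), and on day 3 irradiated mice were at 0.891 and shams at 0.889. The 10 highest segments of a library held 36.7 ± 6.11% of the sum in irradiated and 24.7 ± 1.21% in sham mice on acute day 5.

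**Figure D2:**
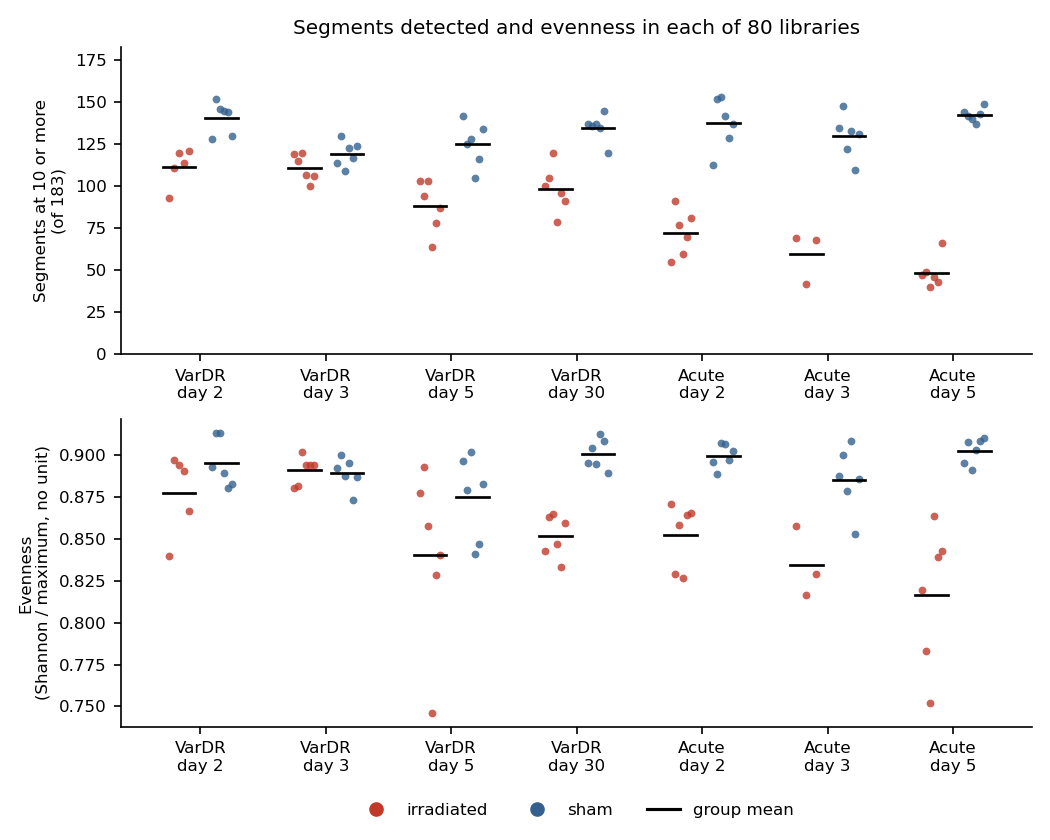
Number of the 183 segments at a rescaled value of 10 or more (upper panel) and Shannon evenness (lower panel) in each library, by mode and day, irradiated in red left of sham in blue, with group means as black bars. On acute day 5 irradiated mice had 40 to 66 segments detected and an evenness of 0.752 to 0.864, against 137 to 149 and 0.891 to 0.910 in shams.

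In 6 of 7 comparisons irradiated mice resembled each other less, by the median, than their shams did. For each pair of mice in a group, the part of the 2 segment profiles that is not shared was computed from the share of each segment in its library. Its median over the 15 pairs was 46.0% among irradiated mice of acute day 5 (29.7 to 59.7%) and 16.9% among their shams (13.7 to 22.8%), so that no irradiated pair was as alike as any sham pair. On VarDR day 30 it was 35.8% (30.3 to 38.0%) among irradiated mice and 18.0% (12.7 to 24.0%) among shams. On acute day 3 the order was the other way, with 23.6% over 3 pairs of irradiated mice and 29.1% among shams. Only 9 segments were detected in all 6 irradiated mice of acute day 5, against 108 in all 6 shams, and on VarDR day 30 the counts were 42 and 99. Low values vary more between libraries, and the part of depth in these figures was not tested.

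Individual segments were compared with limma on log2(value + 1), with adjusted p-values over all 21101 genes and a threshold of 0.05. The p-values rest on a spread between mice that is pooled over all 14 groups, not on the compared groups alone. The added 1 makes the differences of low segments smaller than their ratios. A ± after a log2 difference is its standard error, and a ± after a mean is the SD. On acute day 5, 134 of the 183 segments fell and 0 rose, which is 73.2%, where 9.12% of all genes tested fell and 9.76% rose. These were 61 of 94 heavy, 70 of 86 kappa and 3 of 3 lambda segments, and 179 of the 183 differences were below 0, with a median of −2.56 against 0.02 for all genes. Among the 157 segments that irradiated libraries alone would also have kept, 125 fell (79.6%). Calls were spread over the loci, with 18 of 31, 23 of 32 and 20 of 31 heavy segments in the parts of the locus with the lowest, middle and highest coordinates, and 21 of 28, 23 of 30 and 26 of 28 kappa segments. They followed the level, with 58 of the 61 segments of highest mean level, 51 of the middle 61 and 25 of the lowest 61.

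All 3 lambda segments fell on acute day 5, and Iglv3 had the lowest difference among the 11 segments named by their level. Iglv3 had values of 7.75, 13.2 and 34.5 (lowest, median, highest) in irradiated mice, against 211, 226 and 270 in shams. The ranges lie far apart, with means of 17.3 ± 9.95 and 235 ± 27.0 and a log2 difference of −3.84 ± 0.30 (adjusted p = 6.72e-18). Iglv1, the lambda segment most used in inbred mice, averaged 76.7 ± 24.6 in irradiated and 394 ± 40.7 in sham mice (−2.40 ± 0.24, adjusted p = 2.34e-13), and Iglv2 27.9 ± 17.1 and 145 ± 28.2 (−2.50 ± 0.36, adjusted p = 4.42e-08).

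Among kappa segments of high level, Igkv1-117 had 2.59, 31.0 and 48.6 in irradiated mice of acute day 5, against 193, 239 and 290 in shams (−3.23 ± 0.37, adjusted p = 2.88e-11). Igkv1-110 was at 21.0, 24.3 and 34.5 against 121, 178 and 223 (−2.69 ± 0.27, adjusted p = 4.29e-13), and Igkv10-96 at 16.7, 37.4 and 88.9 against 170, 190 and 240 (−2.38 ± 0.51, adjusted p = 2.15e-04). Each of these pairs of groups is separate, without a single overlapping mouse. Of the heavy segments of high level, Ighv1-26 averaged 24.7 ± 15.4 in irradiated and 180.5 ± 46.3 in sham mice (−2.98 ± 0.47, adjusted p = 4.63e-07), and Ighv9-3 28.9 ± 11.4 and 143 ± 18.6 (−2.35 ± 0.31, adjusted p = 3.58e-09). Ighv3-6 was listed at 0 in the lowest irradiated mouse, with a median of 21.6 and a highest value of 42.0, against 61.4, 101 and 112 in shams (−2.56 ± 0.44, adjusted p = 2.90e-06).

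The 3 lowest differences on acute day 5 belonged to segments that nearly vanished. Igkv13-84 had 0, 1.19 and 6.53 in irradiated mice, against 36.2, 47.3 and 93.7 in shams (−4.64 ± 0.75, adjusted p = 8.38e-07). Igkv12-41 had 0, 1.25 and 16.4 against 50.8, 55.1 and 77.0 (−4.28 ± 0.56, adjusted p = 2.60e-09), and Ighv9-1 had 0, 0.539 and 1.61 against 11.2, 32.1 and 54.0 (−4.21 ± 0.76, adjusted p = 8.79e-06). The smallest differences among calls were those of Igkv8-27, Ighv1-55 and Igkv6-15. Igkv8-27 (−1.53 ± 0.56, adjusted p = 0.0443) reached 184 in 1 irradiated mouse while the median of its group was 24.0, against 40.6, 50.6 and 119 in shams. Its adjusted p was above 0.05 without any 1 of 9 of the 12 mice, and 0.41 without irradiated replicate 3. Igkv6-15 (−1.81 ± 0.52, adjusted p = 0.00733) had an adjusted p of 0.0646 without irradiated replicate 5.

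**Figure D3:**
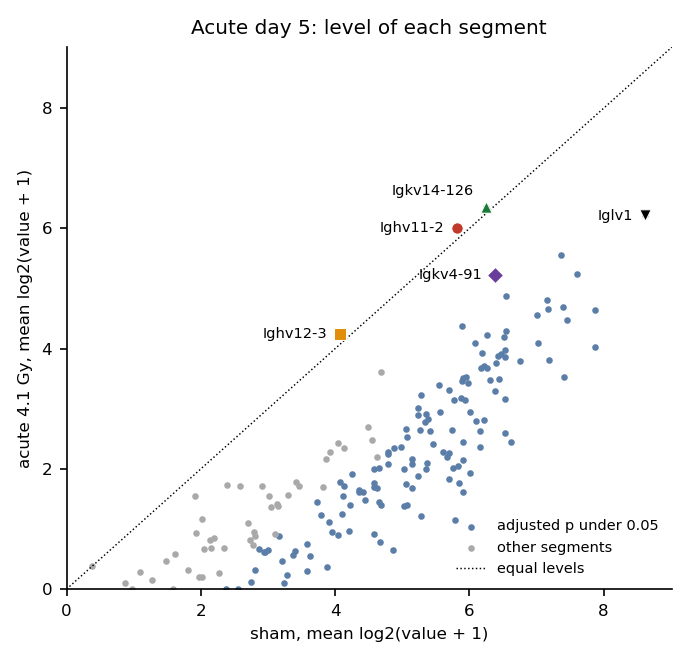
Mean log2(value + 1) of each of the 183 segments in shams of acute day 5 (horizontal axis) and in mice given 4.1 Gy acutely (vertical axis), 1 point per segment, with a diagonal of equal level. Most points lie below the diagonal (179 of 183 differences below 0), while Ighv11-2 and Igkv14-126 lie near it with differences of 0.19 and 0.10 (−0.118 with library weights and −0.065 after quantile normalization).

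After acute exposure the calls were fewer in the groups of lower dose and earlier day. On acute day 2, 88 segments fell and 0 rose (48.1%, where 7.47% of all genes fell and 7.37% rose), and on acute day 3, 60 fell and 0 rose (32.8%, where 8.73% fell and 11.8% rose). The median differences were −1.70 and −1.56. Of the 157 segments that irradiated libraries alone would also have kept, 84 (53.5%) fell on day 2 and 58 (36.9%) on day 3. On day 2, Iglv3 had 31.0, 52.2 and 63.8 in irradiated mice, against 128, 254.5 and 306 in shams (−2.12 ± 0.30, adjusted p = 2.63e-08), with no overlap. Lowest on that day were Ighv9-1 (−3.48 ± 0.76), Igkv3-4 (−3.06 ± 0.45) and Ighv8-12 (−2.97 ± 0.72), with adjusted p of 0.0012 or less. The 3 irradiated mice of acute day 3 had Iglv3 values of 46.2, 28.3 and 42.4, against 131, 186 and 248.5 in shams (−2.22 ± 0.37, adjusted p = 1.49e-06). Lowest on day 3 were Igkv1-133 (−3.71 ± 0.96), Igkv14-100 (−3.60 ± 0.73) and Ighv1-80 (−3.48 ± 0.69). Ighv1-80 had 7.81, 3.45 and 7.40 in irradiated mice, against 43.2, 83.0 and 141 in shams. Iglv2 was the exception among lambda segments on both days, with −0.77 ± 0.36 (adjusted p = 0.16) on day 2 and −0.59 ± 0.44 (adjusted p = 0.358) on day 3, and its groups overlapped.

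The acute day 3 count, from 3 irradiated mice, moved with the processing. With the values as deposited 29 fell and 4 rose, while 111 fell after quantile normalization and 118 with library weights. The shares of all genes called under these settings are not given here, so the counts do not set the segments apart from other genes. Without irradiated replicate 2, the library with the lowest sum, 28 segments were called, and the calls of Ighv9-3, Ighv3-6, Igkv1-117 and Igkv10-96 were lost (adjusted p of 0.125, 0.0766, 0.083 and 0.0559). Liver transcripts, counted with a list of 15 genes, held 0.166 to 2.39% of the signal in these 3 libraries and at most 0.110% in their shams. They exceeded 0.5% in 3 of 6 irradiated libraries on acute day 2 and in 3 of 6 on day 5, and in 1 sham of acute day 2. Of this list, Hp and Trf averaged 1448 and 3028 in shams of VarDR day 2, where Alb averaged 187.6. The list may therefore also hold transcripts of blood cells. Leaving out every library over 0.5% gave 60 calls on acute day 2 and 119 on acute day 5. On acute day 3 it left 1 irradiated mouse, assumed to vary like the other groups, and 16 calls, which is no check of the 60. The part of the liver transcripts in the acute day 3 result was not tested.

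Under VarDR, 43 segments fell and 0 rose on day 5 (23.5%, where 3.38% of all genes fell and 5.41% rose), 11 heavy, 29 kappa and 3 lambda. Iglv1 had 72.6, 160 and 208 in irradiated mice, against 276, 399.5 and 610.5 in shams, without overlap (−1.52 ± 0.24, adjusted p = 2.78e-06). Igkv1-110 had 34.6, 79.4 and 123 against 124.5, 162 and 225 (−1.10 ± 0.27, adjusted p = 0.00346). The lowest differences were those of Igkv13-84 (−3.04 ± 0.75, adjusted p = 0.00353), Igkv12-41 (−2.77 ± 0.56, adjusted p = 2.20e-04) and Ighv5-9-1 (−2.76 ± 0.69, adjusted p = 0.00439). Igkv13-84 and Igkv12-41 are the same 2 segments that had the lowest differences on acute day 5. Fitted on these 2 groups alone 3 segments were called, and without libraries over 0.5% liver transcripts (2 irradiated and 3 sham libraries left) 18 were called.

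On VarDR day 30, 41 segments fell and 0 rose (22.4%, where 12.5% of all genes fell and 12.7% rose), 17 heavy, 23 kappa and 1 lambda. Of the 157 segments that irradiated libraries alone would also have kept, 39 fell (24.8%). Igkv1-110 had 21.9, 36.2 and 62.4 in irradiated mice, against 126, 153 and 184 in shams, ranges that stayed well apart (−2.03 ± 0.27, adjusted p = 6.47e-08). Igkv9-124 was listed at 0 in 4 of 6 irradiated mice, with a highest value of 18.2, against 16.2, 20.6 and 37.3 in shams (−3.46 ± 0.79, adjusted p = 4.56e-04). Igkv4-63 (−3.10 ± 0.86, adjusted p = 0.0044) and Igkv4-59 (−2.78 ± 0.74, adjusted p = 0.00289) were the next lowest. Igkv19-93 (−0.81, adjusted p = 0.0395), Ighv9-3 (−0.84, adjusted p = 0.0363) and Iglv3 were the 3 smallest falls, and the calls of Igkv19-93 and Ighv9-3 were lost when any 1 of 8 or 6 libraries was left out. Iglv1 had 181, 287 and 548 in irradiated mice, against 253, 342 and 533 in shams, with ranges that overlapped (−0.16 ± 0.24, adjusted p = 0.672). Iglv3 fell to 105 ± 44.3 in irradiated mice, against 199 ± 51.1 in shams (−1.01 ± 0.30, adjusted p = 0.0074, and 0.0673 without irradiated replicate 4). The count of calls was 27 without that replicate.

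The 2 early VarDR days gave few or no calls. On day 2, 6 segments fell and 0 rose (3.28%, where 0.744% of all genes fell and 2.53% rose), namely Igkv4-79, Igkv2-137, Ighv1-18, Igkv4-72, Igkv17-121 and Iglv1. Among the 157 segments that irradiated libraries alone would also have kept, 5 fell (3.18%). Iglv1 had values of 196.5, 105, 272, 242 and 259 in irradiated mice, all below the sham range of 315 to 575.5 (−0.95 ± 0.25, adjusted p = 0.0136). Igkv2-137 had 20.7, 9.26, 12.0, 38.9 and 3.93 in irradiated mice, against 60.8, 65.3 and 92.5 in shams, also without overlap (−2.31 ± 0.66, adjusted p = 0.0302). The adjusted p of Iglv1 was 0.157 without irradiated replicate 2 and 0.0584 without sham replicate 4. Each of the 6 calls was lost without at least 1 library. The count was 2, 1, 3 and 3 without irradiated replicates 1 and 2 and sham replicates 2 and 4. On day 3, 0 segments fell and 0 rose by limma (where 5.24% of all genes fell and 5.12% rose), with 6 lower and 1 higher at an unadjusted p under 0.05. The lowest adjusted p was 0.0771, for Igkv19-93, named here after its value was seen. Differences on VarDR day 3 were below 0 for 116 of 183 segments, with a median of −0.19, and Iglv1 had 177, 209 and 311 in irradiated mice, against 194, 252 and 331 in shams (−0.17 ± 0.24, adjusted p = 0.789).

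**Figure D4:**
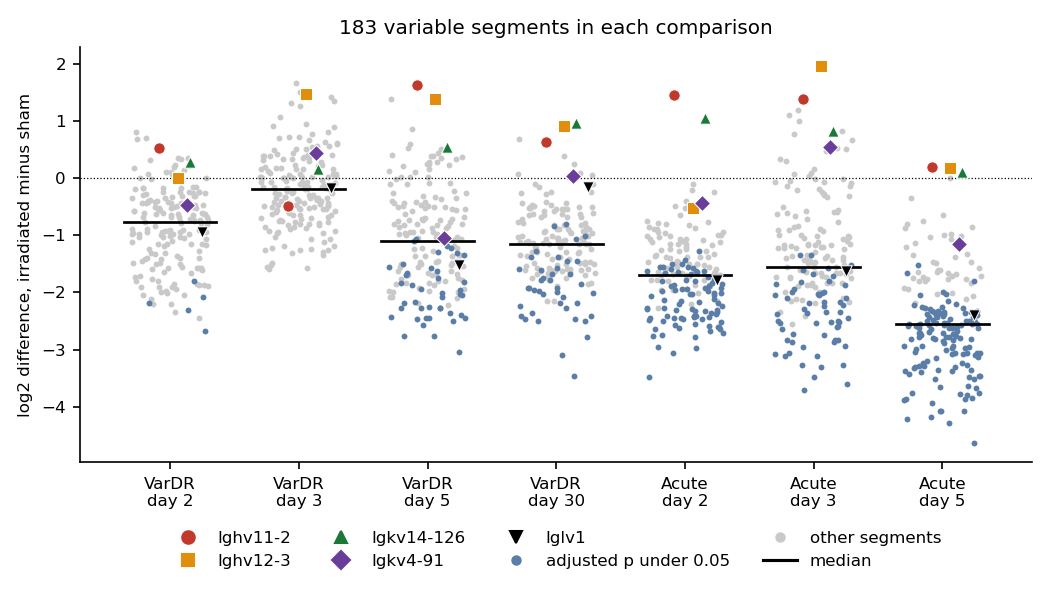
Log2 difference (irradiated minus sham, on log2(value + 1)) of each of the 183 segments, 1 dot per segment, in the 7 comparisons along the horizontal axis. Blue dots have an adjusted p under 0.05, grey dots do not, black lines are medians and 5 segments are marked. The medians run from −0.19 on VarDR day 3 to −2.56 on acute day 5, and Ighv11-2 and Igkv14-126 stay at the top of most columns.

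While most segments stood lower, the log2 difference was above 0 in 7 of 7 comparisons for Igkv14-126 and in 6 of 7 for Ighv11-2, which was at −0.49 on VarDR day 3. The sign of Igkv14-126 turned in 4 of these comparisons under other settings, to −0.015 on VarDR day 2 without irradiated replicate 5 and −0.013 without sham replicate 4, and to −0.102 on VarDR day 3 without sham replicate 2. It was also −0.016 on VarDR day 5 without libraries over 0.5% liver transcripts, and −0.065 on acute day 5 after quantile normalization and −0.004 and −0.064 without sham replicates 3 and 4. That of Ighv11-2 turned on acute day 5, to −0.118 with library weights and −0.027 without irradiated replicate 3. Their mean share of the chain's signal was higher in irradiated mice in the same 7 and 6 comparisons. Ighv11-2 and Igkv14-126 are among the members named by level, and Ighv12-3 and Igkv4-91 were added after their values were seen. For Igkv4-91 the log2 difference was −0.47, 0.44, −1.04 and 0.03 on VarDR days 2, 3, 5 and 30. On acute days 2, 3 and 5 it was −0.44, 0.54 and −1.15. For Ighv12-3 the values were −0.01, 1.47, 1.38 and 0.90 under VarDR and −0.53, 1.96 and 0.17 after acute exposure, in the same order. In mouse immunology, Ighv11-2 paired with Igkv14-126, and Ighv12-3 paired with Igkv4-91, are the well-known receptors of B-1a cells that bind phosphatidylcholine, a self-renewing B cell subset most abundant in the peritoneal and pleural cavities. These data hold no pairing of heavy and light chains and no cell sorting, so which cells made the transcripts was not tested.

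On acute day 5, Ighv11-2 had values of 41.2, 60.1 and 134 in irradiated mice, against 31.5, 56.5 and 99.9 in shams, so its ranges overlapped while nearly all other segments were lower (0.19 ± 0.78, adjusted p = 0.915). Igkv14-126 had 60.7, 82.7 and 107 against 42.6, 78.9 and 132.5 (0.10 ± 0.55, adjusted p = 0.94). Among the 183 differences of that day, ordered from the highest, Ighv11-2 stood at rank 1, Ighv12-3 at rank 2, Igkv14-126 at rank 3 and Igkv4-91 at rank 17. Ighv11-2 was at rank 1 on VarDR day 5 and on acute day 2 as well, at rank 2 on acute day 3 and at rank 4 on VarDR days 2 and 30, but at rank 123 on VarDR day 3. Igkv14-126 stood at rank 9, 51, 6 and 1 on VarDR days 2, 3, 5 and 30, and at ranks 2, 7 and 3 on acute days 2, 3 and 5.

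Shares of the chain do not depend on scaling. Igkv14-126 held 5.91, 10.9 and 16.1% of the kappa signal in irradiated mice of acute day 5 (lowest, median, highest), against 1.04, 1.73 and 2.87% in shams. It held 10.7, 13.8 and 21.3% against 0.613, 2.09 and 9.22% on acute day 2, and 14, 21.6 and 17.1% in the 3 irradiated mice of acute day 3, against 0.857, 2.69 and 11.9% in shams. In the acute mode each irradiated mouse thus had a higher Igkv14-126 share than every sham of its day. On VarDR day 5, 5 of 6 irradiated mice were above all shams (mean 12.0 against 3.30%), and on VarDR day 30, 1 of 6 was (6.88 against 2.81%). None was on VarDR day 2 (7.24 against 4.77%) or day 3 (3.91 against 3.56%).

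Ighv11-2 held 5.25, 7.92 and 20.1% of the heavy-chain signal in irradiated mice of acute day 5, against 0.952, 1.73 and 2.95% in shams, again without overlap. The means were 12.5 against 2.58% on acute day 2, 16.4 against 3.59% on acute day 3, 10.8 against 2.94% on VarDR day 5 and 5.26 against 2.45% on VarDR day 30. On those 4 days the ranges overlapped, with 4 of 6, 2 of 3, 5 of 6 and 2 of 6 irradiated mice above all shams. On VarDR day 3 the mean share was 2.96 against 3.81%, and 2.91 against 2.73% without libraries over 0.5% liver transcripts. Ighv12-3 held 5.21, 5.55 and 10.2% in the 3 irradiated mice of acute day 3, against 0.0611, 0.561 and 4.28% in shams, and averaged 3.27 against 0.577% on acute day 5. Igkv4-91 averaged 4.89 against 2.12% of the kappa signal on acute day 5 and 3.17 against 3.28% on VarDR day 5, when Ighv12-3 averaged 2.82 against 0.914%. Without libraries over 0.5% liver transcripts, which left 2 irradiated and 3 sham mice on VarDR day 5, Ighv12-3 was at 0.284 against 0.383% and Igkv4-91 at 1.89 against 4.19%.

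Leaving out libraries over 0.5% liver transcripts, the mean share of Igkv14-126 was 11.3 against 1.82% on acute day 5 and 16.2 against 3.07% on acute day 2, and that of Ighv11-2 was 10.7 against 1.87% and 14.8 against 2.57%. On VarDR day 5 that left 2 irradiated and 3 sham mice, with Igkv14-126 at 8.34 against 2.87% and Ighv11-2 at 4.94 against 2.59%. The levels themselves did not pass the test in any of the 7 comparisons for Ighv11-2 or Igkv14-126 (adjusted p of 0.205 or more, and differences of up to 1.62). Igkv14-126 on acute day 2 passed without sham replicate 2, the sham with the highest value (1.56, adjusted p = 0.0426). With the values as deposited, in which acute irradiated libraries carry a larger scale than their shams, Igkv14-126 passed on acute days 2 and 3 (adjusted p = 0.0292 and 0.0181) and Ighv11-2 on acute day 3 (adjusted p = 0.0285).

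**Figure D5:**
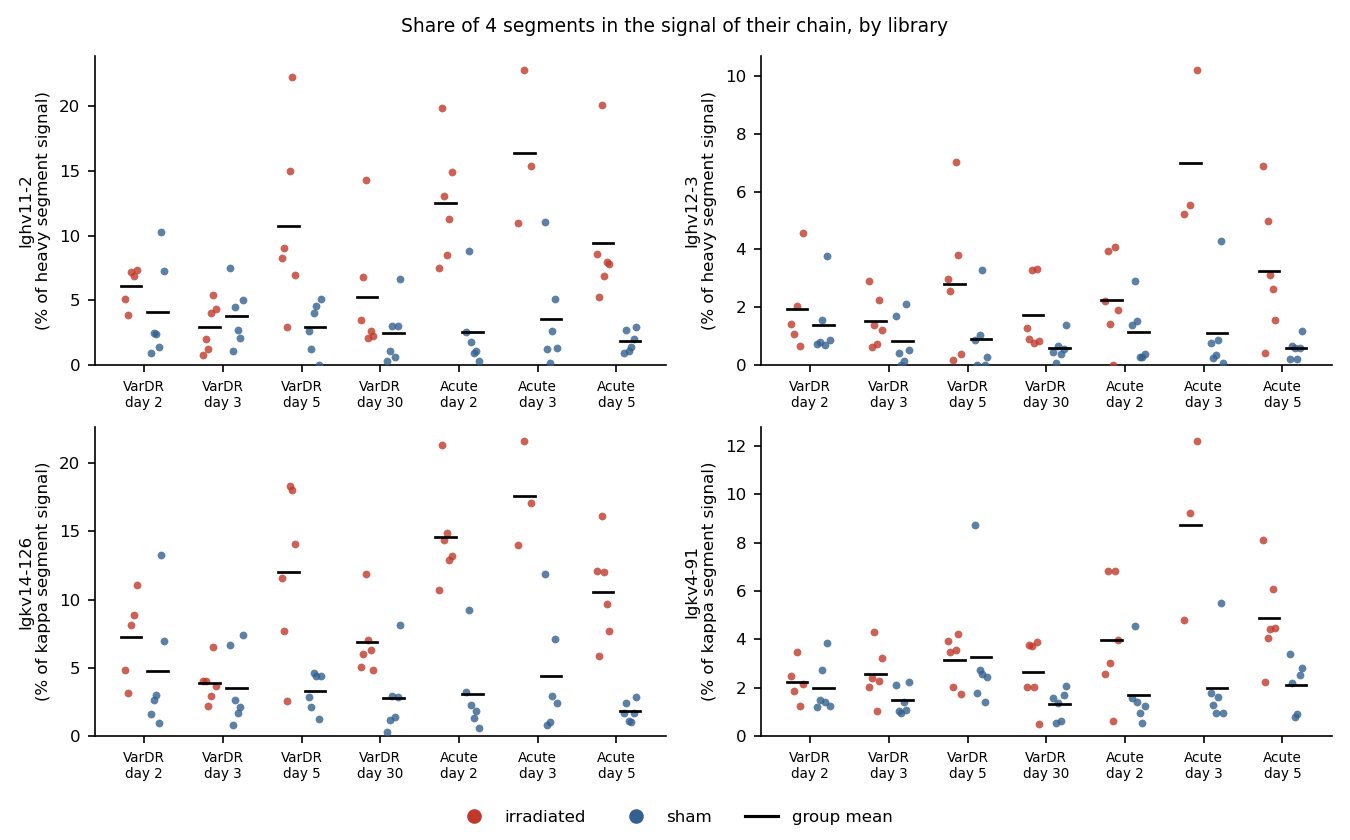
Share of Ighv11-2 and Ighv12-3 in the heavy-chain signal and of Igkv14-126 and Igkv4-91 in the kappa signal (percent, vertical axes) in each library, by mode and day, irradiated in red left of sham in blue, with group means as black bars. The Igkv14-126 share was 5.91 to 16.1% in irradiated mice and 1.04 to 2.87% in shams of acute day 5.

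Whether the named partners peaked in the same mouse was counted within groups. The library with the highest Ighv11-2 share also had the highest Igkv14-126 share in 11 of 14 groups (6 irradiated and 5 sham), and that with the highest Ighv12-3 share had the highest Igkv4-91 share in 8 of 14. For Ighv11-2 with Igkv4-91 the count was 4 of 14, and for Ighv12-3 with Igkv14-126 it was 6 of 14. These counts describe the same libraries and carry no test.

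The segment that held the most signal in a library changed accordingly. Iglv1 led in 16 of 38 irradiated and 40 of 42 sham libraries, and Igkv14-126 in 15 irradiated and 2 sham libraries. Divided by transcript length the counts were 15 and 39 for Iglv1 and 18 and 3 for Igkv14-126. Igkv14-126 led in all 6 irradiated mice of acute day 2 and all 3 of acute day 3. Ighv11-2 led in 3 irradiated mice, and Igkv10-96, Igkv5-43, Igkv6-15 and Igkv8-27 led in 1 each, named here because they led. A single segment held over 10% of the whole sum in 4 libraries, all irradiated. These were Iglv1 in replicate 1 of VarDR day 30 (11.7%), Igkv14-126 in replicate 2 of acute day 2 (10.6%) and in replicate 2 of acute day 3 (10.5%), and Ighv11-2 in replicate 3 of acute day 5 (10.01%).

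Acute and VarDR responses to the same dose and day were compared as a difference of differences. VarDR mice built up the dose over the days to sampling, whereas acute mice received it at once. Dose rate and time since the dose thus differ together and cannot be told apart. At 4.1 Gy on day 5 the acute response was lower for 15 segments and higher for 0 (8.2%, where 1.65% of all genes were lower). Igkv1-110 (−1.59 ± 0.38, adjusted p = 0.00893), Igkv19-93 (−1.75 ± 0.43, adjusted p = 0.0105) and Ighv9-3 (−1.83 ± 0.44, adjusted p = 0.00843) were the smallest of these and Ighv1-15 the largest (−4.29 ± 0.91, adjusted p = 0.00218), followed by Ighv1-74 (−4.01 ± 0.96, adjusted p = 0.00821). The count was 24 without irradiated replicate 4 and 24 without sham replicate 1 of VarDR day 5. At 2.8 Gy on day 3, 11 were lower and 0 higher (6.01%, where 1.85% were lower). The count was 7 without irradiated replicate 1 of the acute group or without any of VarDR sham replicates 1, 5 and 6. Without irradiated replicate 2 of the acute group the count was 3, and Iglv1 (−1.45 ± 0.38, adjusted p = 0.0158) had an adjusted p of 0.134. At 2 Gy on day 2 only Igkv3-4 differed (−2.52 ± 0.66, adjusted p = 0.0221), 1 of 183 or 0.546%, where 1.39% of all genes were lower. The count was 2 without acute sham replicate 1. Igkv3-4 had 6.74, 8.32 and 40.8 in acutely irradiated mice, against 52.3, 116 and 145 in their shams.

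Between VarDR days 30 and 5, the response of Iglv1 was higher on day 30 (1.36 ± 0.34, adjusted p = 0.00433, where 6.7% of all genes were higher). Igkv1-122 was lower on day 30 (−3.62 ± 1.09, adjusted p = 0.0195, where 5.82% were lower). The other 181 segments did not pass this test, and the count was 2 to 5 when single libraries were left out. It was 5 without irradiated replicate 4 of day 5 and 4 without sham replicates 1 or 2 of day 5 or irradiated replicates 1, 3, 4 or 5 of day 30.

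Genes that act with the variable segments were taken from lists that earlier results of these data had helped to choose. Beside the counts below, 9.12% of all genes tested fell and 9.76% rose on acute day 5. These shares were 3.38% and 5.41% on VarDR day 5, and 5.24% and 5.12% on VarDR day 3. Of 13 constant genes 6 fell and 0 rose on acute day 5 and on VarDR day 5 alike, namely Ighm, Ighd, Igkc (1539 ± 320 in irradiated and 7920 ± 459 in sham mice of acute day 5, −2.39 ± 0.17, adjusted p = 3.99e-20) and the lambda constant genes Iglc1, Iglc2 and Iglc3, whereas Igha, the constant gene of IgA, had a difference of −0.14 (adjusted p = 0.863) on acute day 5. Of 10 genes of the receptor complex and its signalling 7 fell and 2 rose on acute day 5, with the signalling chain Cd79a at 282 ± 57.2 in irradiated and 3505 ± 375 in sham mice (−3.65 ± 0.19, adjusted p = 2.53e-27). B cell markers fell in 23 of 23 on acute day 5 and in 13 of 23 on VarDR day 3, the day on which 0 variable segments passed. On VarDR day 3 Igha averaged 1914 ± 314 in irradiated and 342 ± 199 in sham mice (2.61 ± 0.38, adjusted p = 7.53e-07). The plasma cell gene Jchain averaged 449 ± 80.2 and 108 ± 37.4 (2.10 ± 0.32, adjusted p = 1.30e-06). No other gene of the plasma cell list passed on that day, Mzb1 and Xbp1 included (−0.04 and −0.11, adjusted p = 0.96 and 0.761). Of the constant genes Igha alone rose on that day, while Ighd and Iglc3 fell (−0.97 and −0.83, adjusted p = 6.96e-04 and 0.00349). Over all 42 shams the medians were 853 for Igha and 262 for Jchain, above the sham means of VarDR day 3. Among 14 plasma cell genes 2 fell and 4 rose on acute day 5, including Xbp1, a regulator of antibody secretion (1948 ± 322 in irradiated and 1283 ± 210 in sham mice, 0.60 ± 0.14, adjusted p = 5.31e-04). Of 8 genes of the antibody secretory pathway 1 fell and 2 rose, and of 14 T cell markers 2 fell and 2 rose. Of 5 octamer and class-switching genes 2 fell. Pou2af1, the octamer coactivator of immunoglobulin promoters, fell on acute day 5 (−2.62 ± 0.18, adjusted p = 9.88e-21). Of 5 tested genes of recombination and the surrogate light chain 2 fell, Rag1 and Vpreb3, and Vpreb3 is also among the B cell markers. Rag1 was at 1.78 ± 1.01 in irradiated and 25.9 ± 13.9 in sham mice (−3.15 ± 0.83, adjusted p = 0.00308).

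T cell receptor variable segments, kept by the same rule, served as the comparison from T cells. Of 94 such segments 0 fell and 3 rose on acute day 5 (where 9.12% of all genes fell and 9.76% rose), with a median difference of 0.08, and their sum was 2258 ± 336 in irradiated and 1703 ± 139 in sham mice. Over the 7 comparisons the number that fell was 0 except on VarDR day 30, when 5 of 94 fell (5.32%, where 12.5% of all genes fell) and the median was −0.74. On that day the immunoglobulin segments had a median of −1.15 and the median of all genes was −0.18. T cell receptor segments were lower in level, with a median of 32 of the 94 detected in sham libraries, against 135 immunoglobulin segments. Calls among immunoglobulin segments followed the level, so the counts of calls in these lists are not a like-for-like contrast. Some of the 94 rows also held identical values, such as Trav6-6 and Trav6d-6, and are not separate measurements. The part of level in this contrast was not tested. Across the series the deposited columns summed to between 15.9 and 77.7 M (median 34.5 M), and 20 of 80 libraries held over 0.5% liver transcripts. All 23 B cell and all 14 T cell markers were among the genes tested.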

How the data were processed

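Whole-blood RNA of 80 mice in 14 groups was analysed. Per the labels' protocols, blood went into PAXgene tubes, globin and ribosomal RNA were removed and stranded total RNA libraries were made. The values are the authors' deposited signal, normalized read counts per gene that are not whole numbers, so no count model was used. Tools listed there, per the submitters' processing notes, are kallisto 0.44.0, bcl2fastq 2.19, DESeq2 and sleuth, with GRCm38 as build and with no role or order. The sheet's own title speaks of lung and of another day, but its column names match the titles of these blood samples. Of 82 value columns, 2 matched no sample and were not used. Of 50391 rows, 26 carried dates in place of symbols (at most 0.471% of a library) and were dropped. Acute irradiated libraries had been scaled apart from their shams (log2 shift 0.48, 1.02 and 0.95 on days 2, 3 and 5), so libraries were rescaled by medians of ratios over 11349 genes above 0 everywhere.

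Genes at 10 or more in 3 or more libraries entered limma 3.58.1 (R 4.3.3, trend and robust) on log2(value + 1), with all 14 groups in 1 fit, Benjamini-Hochberg adjustment over 21101 genes and a threshold of 0.05. The fit was also run on simulated data with independent normal spread on the log2 scale. Such data do not copy values at 0 or segments that move together, so they are no check of calls there. Sums, detection, evenness and shares were computed with Python 3.11.15 and are described without a test. Reads per library are not given in the sources used here, so no counting interval could be formed. Named segments are the 4 heavy, 4 kappa and all lambda segments of highest mean level, the 3 highest and 3 lowest differences among calls of a comparison, and any segment over 10% of a library. Others are said to be chosen after their values were seen. The members and gene lists were chosen with earlier results of these data known. Alternatives covered scaling, pseudocount, filter, groups in the fit, library weights, detection and left-out libraries. Scaling to the column total, and leaving out high-liver libraries for the sums, detection and evenness, were added after seeing the data.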

Additional observations from a re-analysis of the deposited data

Results flagged for a closer look

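One irradiated mouse of acute day 5, replicate 6, stood apart from its group with 66 segments detected, against 40 to 49 in the other 5 irradiated mice. It was the only library set apart among 39 combinations of group and measure, and chance sets apart about 1 in 20 groups.

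The responses to acute and VarDR exposure, each relative to its own shams, differed by limma (adjusted p under 0.05) for the following named segments. At 2 Gy on day 2 the difference was −2.52 for Igkv3-4. At 2.8 Gy on day 3 it was −4.42 for Igkv1-133, −4.01 for Igkv14-100, −3.05 for Igkv3-4, −2.33 for Igkv8-24, −1.93 for Igkv6-23 and −1.45 for Iglv1. Without irradiated replicate 2 of acute day 3, Igkv1-133, Igkv3-4, Igkv8-24, Igkv6-23 and Iglv1 missed the threshold (adjusted p = 0.109, 0.0569, 0.0583, 0.246 and 0.134). Igkv1-133 missed it without any 1 of 8 libraries and Igkv6-23 without any 1 of 11. At 4.1 Gy on day 5 it was −4.29 for Ighv1-15, −4.01 for Ighv1-74, −3.87 for Ighv1-77, −1.83 for Ighv9-3, −1.75 for Igkv19-93 and −1.59 for Igkv1-110. Ighv1-77 missed the threshold without any 1 of 19 libraries (adjusted p = 0.0543 to 0.0923). Between days 30 and 5 of VarDR it was 1.36 for Iglv1 and −3.62 for Igkv1-122.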

How the results depend on the processing

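In the 7 irradiated-against-sham comparisons no alternative gave more higher than lower calls. Shares of all genes called under the alternatives are not given here, so the counts do not set the segments apart from other genes. With library weights the counts of segments called were 28, 2, 26 and 63 on VarDR days 2, 3, 5 and 30, and 147 (1 higher) and 118 on acute days 2 and 3. With a pseudocount of 10 they were 10 and 1 on VarDR days 2 and 3, and with the compared groups alone 3 and 3 on VarDR days 2 and 5. Acute day 3 gave 33 as deposited (4 higher) and 111 after quantile normalization. Without libraries over 0.5% liver transcripts the counts were 18 on VarDR day 5 and 16 on acute day 3. For acute minus VarDR, day 2 gave 2 (quantile), 3 (pseudocount 10), 4 (compared groups), 28 (weights) and 3 (liver), day 3 gave 7 (deposited), 30 (quantile), 41 (weights) and 1 (liver), and day 5 gave 6 (compared groups) and 30 (weights). VarDR day 30 minus day 5 gave 5 (pseudocount 10), 1 (compared groups) and 9 (liver).

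Leaving out single libraries gave 1 to 8, 0 to 0, 36 to 49 and 27 to 52 calls on VarDR days 2, 3, 5 and 30, and 69 to 94, 28 to 63 and 124 to 136 on acute days 2, 3 and 5. It gave 1 to 2, 3 to 15 and 11 to 24 for acute minus VarDR on days 2, 3 and 5, and 2 to 5 for VarDR day 30 minus day 5. The evenness difference of VarDR day 3 ranged from −0.001 to 0.004.

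The log2 difference of the sum was 0.636 and −2.134 on VarDR days 3 and 30 and −0.778, −0.458 and −1.684 on acute days 2, 3 and 5 relative to the column total. As deposited it was −1.105, −0.674 and −1.392 on the acute days, and −1.321 on acute day 3 without high-liver libraries. The difference in segments detected was −15.8 on VarDR day 5 and −27.0, −0.50 and −52.3 on the acute days at a detection value of 1, and −42.0, −37.7 and −68.7 on the acute days as deposited. Heavy-chain evenness differed by −0.060 on VarDR day 30 and −0.067 on acute day 2. The cause of these moves was not tested.

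Of 2380 values of named segments under an alternative, 2118 kept direction and side of the threshold, 228 lost a call, 15 gained one and 19 changed sign, none of the last being called. These were Ighv1-26 on VarDR day 3 (0.024 after quantile normalization, −0.123 to 0.054 without single libraries), Iglv2 on acute day 3 (0.409 as deposited, 0.162 without high-liver libraries, −0.972 to 0.049 without single libraries), Ighv11-2 on acute day 5 (−0.118 with weights, −0.027 to 0.355 without single libraries) and Igkv14-126 on acute day 5 (−0.065 after quantile normalization, −0.064 to 0.258 without single libraries). Igkv14-126 also changed sign on VarDR day 5 (−0.016 without high-liver libraries), day 2 (−0.015 to 0.715) and day 3 (−0.102 to 0.451), as did Iglv2 on VarDR day 3 (−0.282 to 0.011) and day 30 (−0.056 to 0.282), without single libraries.

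No paired analysis was possible because the labels give no replicate numbers shared between groups. Values near the detection limit and the 3 irradiated mice of acute day 3 limit the precision.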
